A study of Mus musculus with 6 samples.

Results

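The baseline expression of mouse glioblastoma stem cells grown as neurospheres was described from the 3 control arrays, chosen as those whose sample titles carry the non-target label, out of 6 arrays in the series. The line was derived from glioblastomas that arose in mice through SB (Sleeping Beauty) transposon mutagenesis and was kept as neurospheres, free-floating clusters of cells, in serum-free Neurobasal medium with B27, N2 and 10 ng/ml each of EGF and bFGF. The control cells were themselves transduced with lentivirus carrying a non-target hairpin, so they share lentiviral transduction and EGF and bFGF exposure with the 3 Ggct shRNA arrays, which were used here for the check of the targeted gene alone. All arrays come from 1 line, labelled 5B, and each control array carries a date of its own; whether the dates mark separate cultures is not stated, so the spread between arrays may be technical in part. RNA was read as Cy3-labelled cRNA on one-colour Agilent arrays, and every level below is the log2 signal of a probe minus the 75th percentile of the probes of its array, so that 0 marks the 75th percentile. A gene was called detected where at least 1 of its probes was flagged well above background on 3 of 3 arrays, absent where no probe was on any array, and mixed otherwise. The brightness of a spot also depends on its probe, so levels of different genes are given as they are and are not ranked as transcript abundance.

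Neurosphere medium favours cells that divide under EGF and FGF and resist differentiation, and glioma cells grown this way keep the intermediate filament nestin and the transcription factor Sox2 found in neural stem cells. Human glioblastomas are commonly sorted by expression into a proneural class close to oligodendrocyte progenitors, a classical class with high EGF receptor, and a mesenchymal class rich in matrix, adhesion and inflammatory genes. The classes were defined in tumours that hold immune and vascular cells as well, so in a cultured line their markers describe the cells of the culture.

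Ggct, which encodes gamma-glutamylcyclotransferase and is the gene targeted in the study, had levels of 3.32, 3.72 and 3.70 on the control arrays, a mean of 3.58 ± 0.23 (SD, n = 3). On the 3 arrays of its hairpin it lay between 0.22 and 0.90, so the labels of the arrays held for the targeted gene. The 75th percentile of the signal was 539.6 and 532.5 intensity units on control replicates 1 and 2 and 868.4 on replicate 3. Between 54.5% and 56.7% of the probes of each control array were well above background, and 0 probes were saturated. The dimmest probes called well above background had levels of -5.06, -5.30 and -5.62, which sets the floor of detection on replicates 1, 2 and 3.

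Of 22910 named genes, 13564 were detected (59.2%), 8493 were absent (37.1%) and 853 were mixed (3.72%). Each count of detected list members below is to be read beside that 59.2%. The median level was -2.52 over all named genes and 1.43 over the detected ones, and 66.0% of the detected genes lay above the 75th percentile of the probes. Olfactory receptor genes, which are silent in most cells outside the nose, gave 70 detected members of 1080 (6.48%) and 981 absent ones. Their share of detected members is the background against which a dim detected gene can be read. Among 6190 detected genes with several probes, 1048 had at least 1 probe absent on all arrays (16.9%), and such a disagreement is given below where it touches a named gene.

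Detection differed with the base composition of the promoter, a relation looked up after the values were seen. Of 20013 protein-coding genes, 16031 had a promoter in the RefSeq set for GRCm38.p6, of which the first listed start was used, with 250 bases before it and 50 after it. A promoter was counted as CpG-rich where its GC content was above 50% and the dinucleotide CG reached more than 0.6 of the number its C and G content predicts. The share of CpG-rich promoters was 48.5% over all 16031 genes, 66.2% over 10215 detected genes, 19.8% over 4379 absent genes other than olfactory receptors, and 28.8% over 520 mixed genes. None of 917 olfactory receptor promoters was CpG-rich. Within the detected genes the share was 44.5% in the 25% with the lowest levels and 68.6%, 75.8% and 76.1% in the next groups of the same size. CpG content alone did not separate the genes, as the promoters below show. They are the 250 bases before the start of Sox2 (detected, stem cell factor), Crabp1 (detected, brightest named gene), Olig2 (absent, oligodendrocyte lineage factor), Mgmt (absent, the DNA repair gene whose methylation is assessed in human glioblastoma) and Ptprc (absent, the leukocyte antigen CD45), written 5′ to 3′ on the strand of the gene with every CG in capitals.
Sox2, chr3:34649745-34649994, plus strand: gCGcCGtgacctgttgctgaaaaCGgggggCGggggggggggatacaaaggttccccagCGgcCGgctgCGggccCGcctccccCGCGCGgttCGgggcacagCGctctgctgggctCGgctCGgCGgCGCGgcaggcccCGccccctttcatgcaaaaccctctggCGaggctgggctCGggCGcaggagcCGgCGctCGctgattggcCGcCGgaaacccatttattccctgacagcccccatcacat
Crabp1, chr9:54764498-54764747, plus strand: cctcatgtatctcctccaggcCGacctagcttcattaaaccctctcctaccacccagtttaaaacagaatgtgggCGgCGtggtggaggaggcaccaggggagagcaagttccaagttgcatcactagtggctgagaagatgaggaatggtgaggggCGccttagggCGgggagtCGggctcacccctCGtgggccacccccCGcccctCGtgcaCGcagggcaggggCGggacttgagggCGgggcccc
Olig2, chr16:91225300-91225549, plus strand: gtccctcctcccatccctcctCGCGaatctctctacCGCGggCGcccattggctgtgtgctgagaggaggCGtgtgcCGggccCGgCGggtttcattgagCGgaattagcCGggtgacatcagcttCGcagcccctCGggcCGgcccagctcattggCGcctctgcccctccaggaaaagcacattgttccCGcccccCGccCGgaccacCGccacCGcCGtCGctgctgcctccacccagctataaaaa
Mgmt, chr7:136894336-136894585, plus strand: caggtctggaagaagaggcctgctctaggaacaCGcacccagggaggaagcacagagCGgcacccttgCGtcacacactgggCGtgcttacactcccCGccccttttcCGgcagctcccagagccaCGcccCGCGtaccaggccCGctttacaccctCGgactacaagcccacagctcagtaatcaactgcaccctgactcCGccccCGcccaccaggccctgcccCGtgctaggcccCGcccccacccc
Ptprc, chr1:138175306-138175555, minus strand: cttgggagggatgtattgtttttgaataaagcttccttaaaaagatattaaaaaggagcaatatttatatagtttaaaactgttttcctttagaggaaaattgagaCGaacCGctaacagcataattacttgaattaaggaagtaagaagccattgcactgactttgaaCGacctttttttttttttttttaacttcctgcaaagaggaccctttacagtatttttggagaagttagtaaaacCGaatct
The stretches hold 27 CG in Sox2, 12 in Crabp1, 22 in Olig2, 15 in Mgmt and 4 in Ptprc. Over the whole windows Sox2, Olig2 and Mgmt met the definition of a CpG-rich promoter, although Olig2 and Mgmt were not well above background on any array. Crabp1, in contrast, missed it at 0.54 of the predicted CG and was detected on 3 of 3 arrays. Methylation was not measured in these samples.

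**Figure D1:**
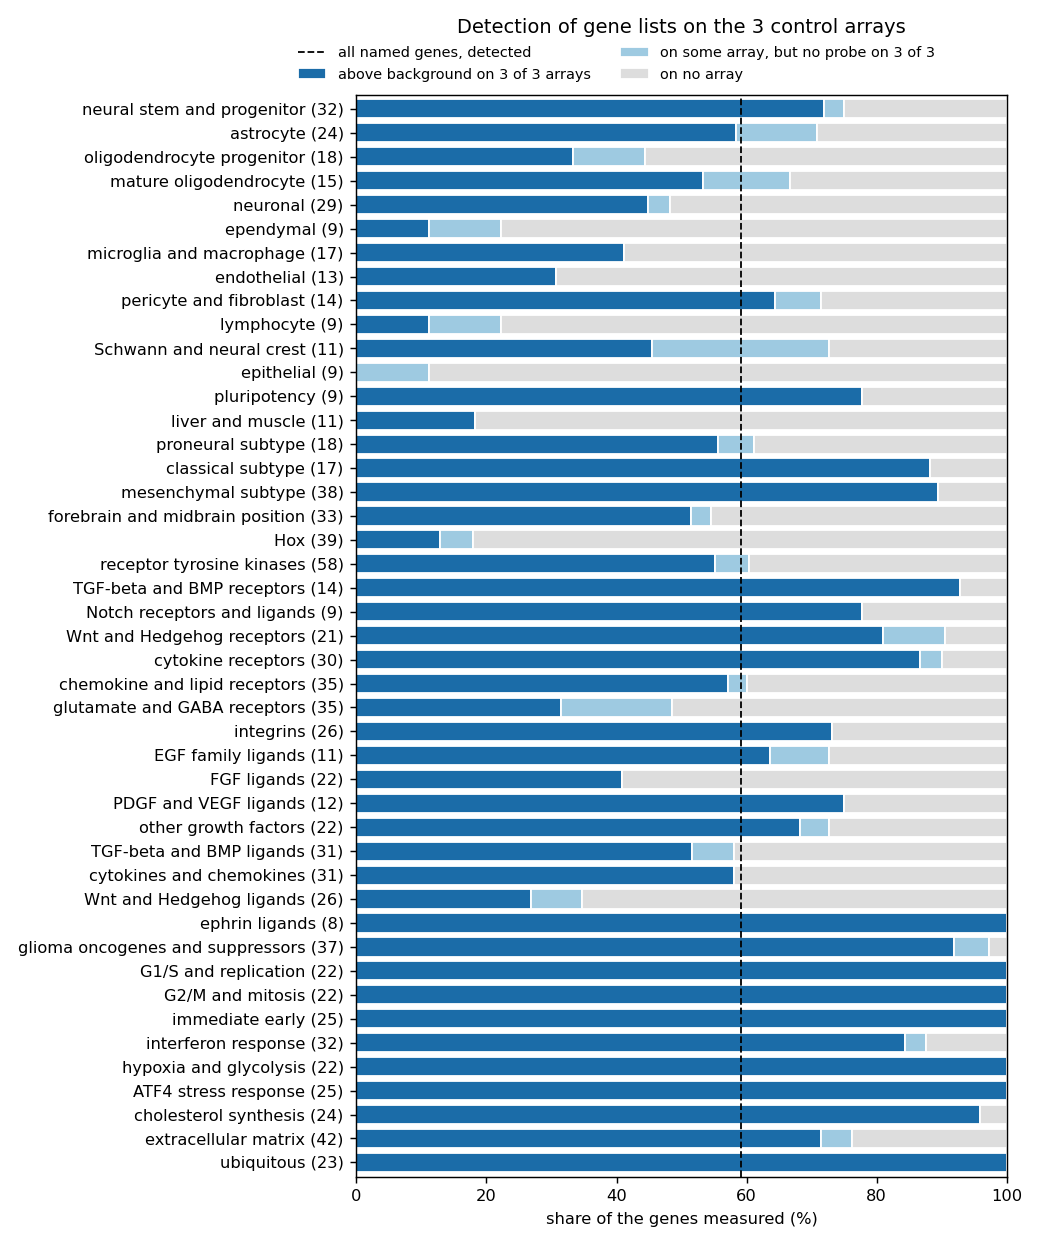
Share of the measured genes of each list that were detected, mixed or absent on the 3 control arrays, in percent, with the number of genes measured in brackets; the dashed line marks the 59.2% of all named genes that were detected. The cell cycle, immediate early, hypoxia and ATF4 lists reach 100%, while the epithelial list has 0 detected genes and the Hox list 5 of 39.

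Of 32 neural stem and progenitor genes, 23 were detected, 1 was mixed and 8 were absent, and 17 lay above the 75th percentile. The detected share was 71.9%, beside 59.2% of all named genes. Sox2, a transcription factor that maintains neural stem cells, had levels of 3.87, 4.04 and 4.0 (3.97 ± 0.09, SD, n = 3). Nes, which encodes nestin, had levels of 4.50, 4.78 and 4.79, and Vim, the filament protein vimentin, had 7.60, 7.71 and 7.47. The 3 arrays lay close together for all of these genes, and no array was the lowest in each. Itga6, an integrin used to isolate glioma stem cells, was at 6.14 ± 0.35, Lrig1, a restrainer of EGF receptor signalling, at 5.67 ± 0.11, and Cd44, a hyaluronan receptor, at 3.66 ± 0.24. Prom1, the source of the CD133 antigen often used to sort glioma stem cells, was detected near the floor, at -4.51, -3.61 and -3.91, by 1 of its 2 probes. Fabp7, a fatty acid binding protein of radial glia, was at -1.01, -0.09 and -0.35, with replicate 1 the lowest. Sox9, which promotes glial fate, had levels of 1.44, 1.93 and 0.74, a wider spread than Sox2, with replicate 3 the lowest. Absent genes of the list included Pax6, Nr2e1, Sox1, Sox3, Hes5 and Ptprz1, all of them expressed in neural stem cells of the brain. The cell type label gives a glioblastoma stem cell line, for which no test was made.

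Astrocyte genes were detected in 14 of 24 cases, close to the 59.2% of all genes. Gfap, the defining filament of astrocytes, was mixed: its brighter probe had levels of -4.23, -4.41 and -6.64, well above background on 2 arrays and not on replicate 3. Of the other defining members, Slc1a2 was absent, Aqp4 and Aldh1l1 were each above background on 1 array, and Slc1a3 (-2.20 ± 0.30) and S100b (-4.20 ± 0.39) were detected. The brightest detected members were Clu at 5.12 ± 0.08, Cst3 at 4.96 ± 0.07 and Sparcl1 at 3.28 ± 0.18, which encode secreted proteins that many other cell types make too. Glul, glutamine synthetase, was at 1.39 ± 0.03 and Apoe, the lipid carrier, at -0.15 ± 0.02, and the 3 arrays lay close together for both.

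The oligodendrocyte progenitor list had 6 of 18 genes detected (33.3%, beside 59.2% of all named genes), and its lineage factors were split. Olig2 and Sox10, both required for the lineage, were absent, as was Cspg4, the source of the NG2 antigen. Olig1 was detected at -3.47, -3.05 and -3.22, and Pdgfra, the PDGF receptor of these progenitors, at 0.94, 0.94 and 1.22. Of 15 mature oligodendrocyte genes 8 were detected (53.3%, near the share of all named genes). Mbp and Mog, however, each had at least 1 probe absent on all arrays beside 1 detected probe. Ermn, a cytoskeletal protein of myelinating cells, was at 3.76 ± 0.27 and Trf, transferrin, at 3.44 ± 0.32.

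Among 29 neuronal genes 13 were detected (44.8%, beside 59.2% of all named genes) and 15 were absent. The neurofilament genes Nefm and Nefl had levels of 6.09 ± 0.23 and 5.99 ± 0.29, and the microtubule gene Tubb3 was at 0.44 ± 0.11. Snap25, a protein of synaptic vesicle fusion, was at 3.38, 3.03 and 2.66, carried by 1 of its 2 probes. Dcx and Rbfox3, which mark young and mature neurons, were absent with every probe, and Syt1 was detected at -3.04 ± 0.61. The ependymal list had 1 detected gene of 9, Tmem212 at -3.99 ± 0.65, and Foxj1, which drives the growth of motile cilia, was absent.

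**Figure D2:**
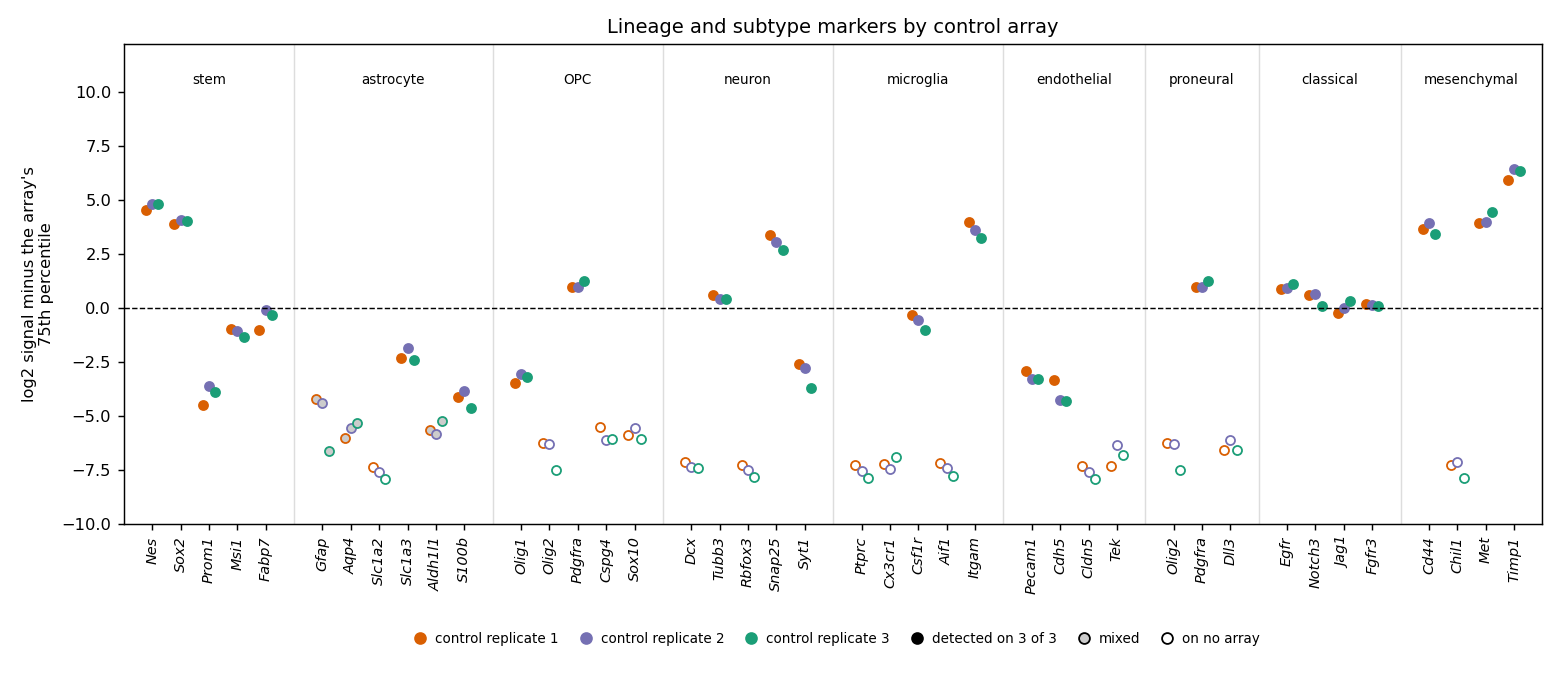
Level of defining markers of 6 lineage or cell type lists and of the 3 glioblastoma classes on each control array, as log2 signal minus the 75th percentile of the array (dashed line at 0); each point is 1 array, filled where the gene was detected on 3 of 3, grey where mixed and open where it was absent. Sox2 and Nes lie near 4 and 4.7 on all arrays, Olig2, Dcx and Ptprc are open, and Gfap is grey with replicate 3 at -6.64.

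Markers of cells that could be carried over from a tumour differed by cell type. The detected share was 11.1% for lymphocytes, 30.8% for endothelium and 64.3% for pericytes and fibroblasts. Over all named genes it was 59.2%, and the share for pericytes and fibroblasts lay near that. In RNA from a whole culture, fewer cells of a type and less RNA per cell cannot be told apart, and the part of other cell types in any level given here was not tested. Of 17 microglia and macrophage genes 7 were detected and 10 were absent, among them Ptprc, Cx3cr1, Aif1, Tyrobp and Spi1. The detected ones were led by Itgam, an integrin subunit of myeloid cells, at 3.96, 3.62 and 3.23, and included Csf1r, the receptor for the growth factor CSF1, at -0.34, -0.58 and -1.05. Cd68, a lysosomal membrane protein, was at 0.46 ± 0.10 and Tmem119 at -0.52 ± 0.35. Both probes of Itgam were detected, but the other one lay far lower, at -4.34. Both probes of Csf1r were detected as well, the other one at -1.19. The CD45 gene Ptprc and the myeloid factor Spi1 were not well above background on any array. Endothelial genes were detected in 4 of 13 cases, with Pecam1 at -3.17 ± 0.21 and Cdh5 at -3.99 ± 0.54, and Cldn5, Kdr and Tek absent. Flt1, a receptor for VEGF, was at 2.95 ± 0.16.

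The pericyte and fibroblast list had 9 of 14 genes detected, near the 59.2% of all named genes. They included Col3a1 at 6.29 ± 0.22, Fap, a protease of activated fibroblasts, at 2.86 ± 0.38, and Pdgfrb at -1.0 ± 0.31. Acta2, smooth muscle actin, was at 4.39 ± 0.39 by 1 of its 3 probes, the other 2 being absent. Col1a1 was mixed, with levels of -5.12, -4.72 and -3.31. Of 9 lymphocyte genes, Cd3e alone was detected, at -1.53 ± 0.29, while Cd3d and Cd3g were absent. The other of the 2 Cd3e probes was detected too, but lower, at -4.49. None of 9 epithelial genes was detected, and 2 of 11 liver and muscle genes were. Of 11 Schwann cell and neural crest genes 5 were detected, with Tfap2a, a transcription factor of the crest, at 2.35 ± 0.07 and Sox10 absent. Pluripotency genes gave 7 detected members of 9. Klf4, which many tissues express, was at 4.13 ± 0.22, Pou5f1 at -1.24 ± 0.23, and Nanog at -2.84 ± 0.18 with 1 of 2 probes; closely related pseudogenes of Pou5f1 and Nanog can share sequence with their probes. Xist, the RNA that silences the second X chromosome, was absent, and so were the Y-linked genes Ddx3y, Uty, Kdm5d and Eif2s3y, whereas their X-linked partners Ddx3x (6.05 ± 0.06), Kdm6a (-1.98 ± 0.22), Kdm5c (2.80 ± 0.05) and Eif2s3x (1.42 ± 0.27) were detected.

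The lists of the 3 glioblastoma classes were counted in the same way. The mesenchymal list had 34 of 38 genes detected and 30 above the 75th percentile, the classical list 15 and 12 of 17, and the proneural list 10 and 9 of 18, beside 59.2% detected over all genes. The median level over all measured members was 3.72 for the mesenchymal, 0.62 for the classical and -1.82 for the proneural list, beside -2.52 for all genes. These medians come from different probes and describe each list without ranking the classes. Several mesenchymal members, such as Vim and Itgb1, are expressed by most cultured cells, and no test of a class was made.

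Among mesenchymal genes, Lgals1, a secreted lectin, had levels of 8.89, 9.05 and 8.54, Anxa2, a membrane-binding annexin, 8.07, 8.32 and 7.92, and Spp1, the matrix protein osteopontin, 7.40, 7.30 and 7.19. Timp1, an inhibitor of matrix metalloproteinases, was at 6.21 ± 0.27 and the receptor Met at 4.11 ± 0.28. The 4 absent genes were Chil1, often used as the marker of the class, and Osmr, Igfbp7 and Ccn2. Classical genes were present with Egfr at 0.84, 0.92 and 1.11, Notch3 at 0.42 ± 0.30, Fgfr3 at 0.11 ± 0.03, Pdgfa at 5.22 ± 0.15 and the Hedgehog transducer Smo at 4.50 ± 0.10. Proneural genes that were detected included Stmn1 (5.70 ± 0.02), Tcf4 (5.63 ± 0.09) and Ncam1 (5.21 ± 0.03), which act in microtubule turnover, transcription and cell adhesion. Of the 5 probes of Tcf4, 4 were detected and 1 was absent. The defining proneural genes Olig2 and Dll3 were absent.

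Genes that mark position along the neural tube were detected in 17 of 33 cases for forebrain and midbrain and in 5 of 39 for the Hox genes of hindbrain and spinal cord. The shares were 51.5% and 12.8%, beside 59.2% of all named genes. Emx2 (2.26 ± 0.19) and Six3 (1.04 ± 0.10), factors of the forebrain, and Zic1 (3.09 ± 0.10) were detected. Otx2, En1 and Lhx2 were absent, while En2, a midbrain and hindbrain factor, was detected at -1.24 ± 0.22. The detected Hox genes included Hoxa3 (1.72 ± 0.10), Hoxa2 (-2.89 ± 0.08), Hoxa5 (-3.03 ± 0.33) and Hoxb3 (-3.05 ± 0.27). These belong to the 3′ part of their clusters, which is used toward the head end, and 32 of the 39 Hox genes were absent.

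Receptor tyrosine kinases, which carry growth factor signals into the cell, were detected for 32 of 58 genes, and 22 lay above the 75th percentile. The detected share of 55.2% was near the 59.2% of all named genes. Egfr, the receptor for the EGF of the medium, was at 0.95 ± 0.14 by the brightest of its 3 probes. The others were detected lower, at -1.45 and -1.80. Its partner Erbb2 was at 0.17 ± 0.19. Fgfr1, a receptor for the bFGF of the medium, had levels of 4.93, 4.84 and 4.62 by the brightest of its 4 probes. The other Fgfr1 probes were detected too, but far lower, at -0.33, -1.26 and -2.34. Ephb3, a receptor for ephrins, was at 6.32 ± 0.05, Axl, a receptor of the TAM group that binds Gas6, at 5.79 ± 0.14, and Igf1r at 2.82 ± 0.06. Insr, the insulin receptor, had levels of -0.70, -1.12 and -2.32 (SD 0.84), the largest spread among these kinases, with replicate 3 the lowest. The 23 absent kinases included Kit, Ret, Kdr, Erbb3 and Erbb4.

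Ligands of the EGF family were detected for 7 of 11 genes, a share of 63.6% beside 59.2% of all named genes. Hbegf, heparin-binding EGF, had levels of 3.58, 3.66 and 3.57, Areg, amphiregulin, 1.57, 1.81 and 1.31, and Ereg, epiregulin, 2.02, 1.89 and 1.45. Egf itself was at -3.44 ± 0.28 and Tgfa was absent. Of 22 FGF genes 9 were detected. Fgf1 was at 1.93 ± 0.27 by the brightest of its 3 probes, and the others were detected far lower, at -2.73 and -4.44. Fgf23, a hormone known from bone, was at 3.32 ± 0.29 by its 1 probe. Fgf2, which encodes the bFGF supplied in the medium, was absent. Pdgfa, the ligand of the PDGF alpha receptor, had levels of 5.06, 5.34 and 5.27, and Pdgfb was at -4.61 ± 0.06. Other detected growth factors included Grn, progranulin, at 7.55 ± 0.20, Ptn, pleiotrophin, at 3.62 ± 0.05, Igf1 at 2.81 ± 0.23 and Vegfa at 2.07 ± 0.21. Hgf, Gdnf and Igf2 were absent.

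Across 22 ligand and receptor axes, 15 had at least 1 detected receptor gene and 1 detected ligand gene, 4 had a ligand alone and 3 a receptor alone. Any 1 member on each side sufficed, and the FGF axis, for example, holds 4 receptors and 8 ligands. With 59.2% of all named genes detected, many such axes would count, and no background share of axes was worked out. The count of 15 is therefore descriptive only. The EGF receptor axis had Egfr with 5 of 7 ligands, the PDGF alpha axis Pdgfra with Pdgfa and Pdgfc (2.34 ± 0.15), and the CSF1 axis Csf1r with Csf1 (1.99 ± 0.34) and Il34 (3.29 ± 0.17). The TAM axis had Axl, Mertk and, by 1 of 2 probes with the other absent, Tyro3, along with Pros1 (1.22 ± 0.11) and Gas6 (-3.56 ± 0.53). Met was detected at 3.94, 3.96 and 4.43 without Hgf, its only known ligand, and Alk at -4.60 ± 0.11 without a detected ligand. In the oncostatin M axis the shared signal transducer Il6st (1.83 ± 0.03) was detected and both Osm and the specific receptor Osmr were absent. The axes with a ligand alone were those of the neuregulins, with Nrg1 at -1.10 ± 0.22 and Nrg2 at -1.14 ± 0.06, of KIT, with Kitl at 0.68 ± 0.39, of RET, with Nrtn at 0.48 ± 0.12, and of the Tie receptors, with Angpt2 at -1.38 ± 0.33. These are RNA levels, and the binding or activity of a receptor was not measured.

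**Figure D3:**
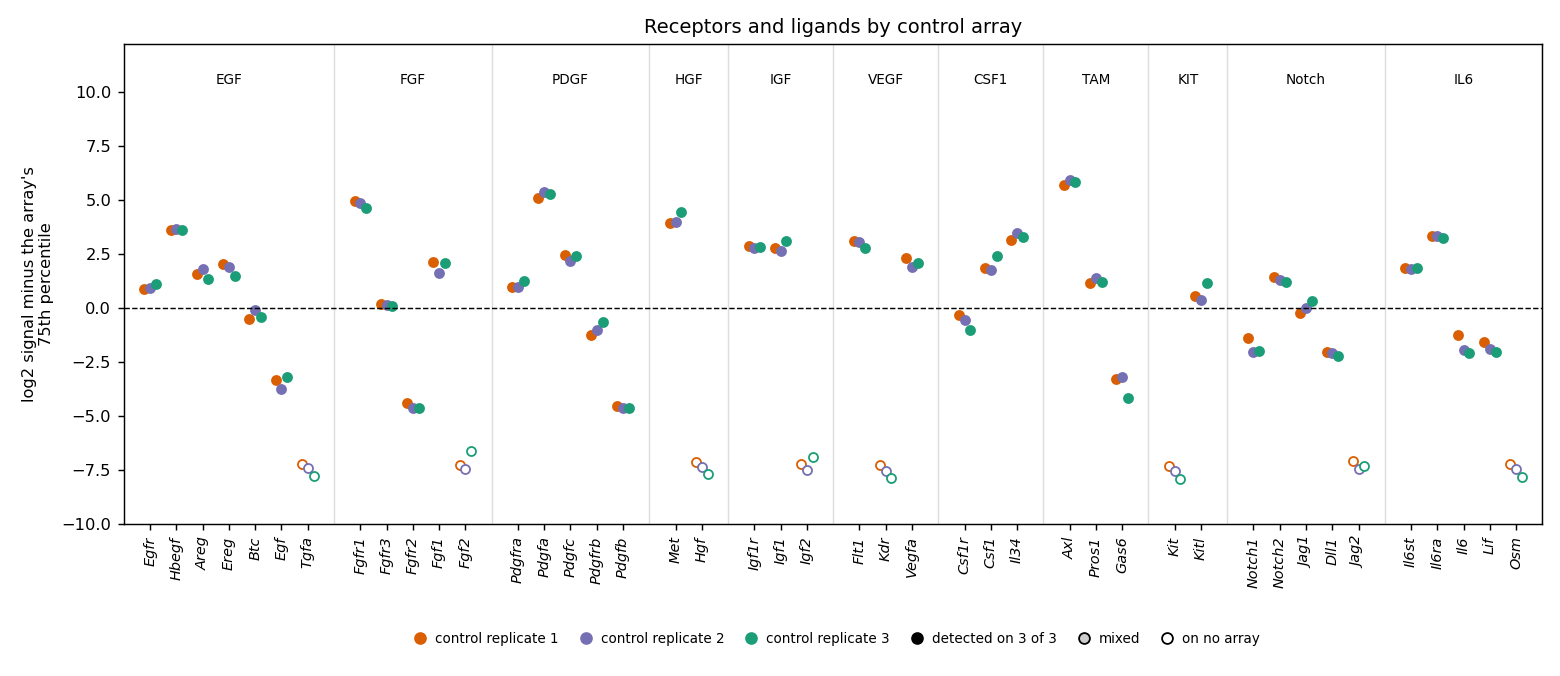
Level of receptor and ligand genes of 11 signalling axes on each control array, as log2 signal minus the 75th percentile of the array (dashed line at 0); each point is 1 array, filled where the gene was detected on 3 of 3 and open where it was absent. Met is filled near 4 beside an open Hgf, and Kitl is filled beside an open Kit.

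TGF-beta and BMP receptors, serine and threonine kinases that signal through SMAD proteins, were detected for 13 of 14 genes. Tgfbr2 was at 3.82 ± 0.10 and Tgfbr1 at 0.90, 0.87 and 1.61, with replicate 3 the highest. Of 31 ligand genes of this family 16 were detected (51.6%, beside 59.2% of all named genes). Among them were Tgfb2 at 3.03 ± 0.05, Tgfb3 at 2.29 ± 0.14 and Tgfb1 at -3.52 ± 0.26 by 1 of 2 probes. All 4 Notch receptor genes were detected: Notch2 at 1.28 ± 0.11, Notch4 at 0.75 ± 0.16 by 1 of 2 probes with the other absent, Notch3 at 0.42 ± 0.30, and Notch1, named in the title of the series, at -1.43, -2.04 and -2.02 (-1.83 ± 0.35). Their ligand genes Jag1 (0.02 ± 0.28), Dll1 (-2.12 ± 0.08) and Dll4 (-3.72 ± 0.44) were detected, and Jag2 and Dll3 were absent. Notch1 was thus highest on replicate 1 and nearly equal on the other arrays.

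Wnt and Hedgehog receptor genes were detected in 17 of 21 cases, and ligands of these pathways in 7 of 26. Wnt7b, a ligand of canonical Wnt signalling, was at 4.84, 5.18 and 4.74, whereas Shh and Ihh were absent and Dhh was at -0.35 ± 0.15. Ptch1, the Hedgehog receptor whose gene is also a target of the pathway, was at -3.47 ± 0.46. Cytokine receptor genes were detected in 26 of 30 cases, among them Tnfrsf1a (3.78 ± 0.07), Il1rap (3.73 ± 0.15) and Il6ra (3.29 ± 0.06). Cytokine and chemokine genes were detected in 18 of 31 cases, near the 59.2% of all named genes. Ccl2, an attractant of monocytes, was at 5.28, 5.55 and 5.99, Il33, an alarmin, at 3.91 ± 0.17 and Cxcl10 at 2.86 ± 0.10. Il6 was at -1.77 ± 0.44, and Il1a, Il1b and Csf2 were absent. Cxcr4 (-0.79 ± 0.21) and its ligand Cxcl12 (-0.18 ± 0.10), a pair known for guiding cell movement, were both detected.

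Glutamate and GABA receptor genes, which serve synaptic transmission, were detected in 11 of 35 cases (31.4%, beside 59.2% of all named genes). Of these, 1 lay above the 75th percentile, Grik5 at 0.69 ± 0.20. Integrins, the receptors for matrix proteins, were detected for 19 of 26 genes (73.1%). Among them were Itgb1 at 6.25, 6.19 and 6.16, Itga6 at 6.28, 6.39 and 5.73, and Itgav at 3.74 ± 0.06. Matrix genes were detected in 30 of 42 cases (71.4%). Sparc, a collagen-binding matrix protein, had levels of 8.92, 9.03 and 8.46, the laminin chain Lamb1 6.60, 6.55 and 6.50, the collagen Col18a1 6.73, 6.60 and 6.16, and fibronectin, from Fn1, 5.32, 5.17 and 4.99. The brain matrix genes Bcan, Acan, Tnr and Hapln1 were absent. All 8 ephrin genes measured were detected, led by Efnb2 at 3.24 ± 0.15.

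Of 37 glioma oncogenes and tumour suppressors 34 were detected (91.9%, beside 59.2% of all named genes). Cdk4, which drives the exit from G1 and is amplified in some human glioblastomas, had levels of 8.73, 8.75 and 8.44 with all 3 probes detected, and its partner Ccnd1 had 7.38, 7.45 and 7.31. Cdkn2a, the locus of the inhibitors p16 and p19ARF that is deleted in many human glioblastomas, had levels of 6.72, 6.81 and 6.31 by its brighter probe. Its other probe was detected too, but far lower, at 1.82. The neighbouring Cdkn2b was at 5.31 ± 0.09. RNA for these suppressors was therefore present in the control cells on every array. Nf1 was at 1.87 ± 0.15, Rb1 at 1.30 ± 0.07 and Trp53 at -0.85 ± 0.08, while Mdm2, which degrades p53, was at 5.01 ± 0.11. Myc was at 2.59 ± 0.05. Cdk6 had levels of -1.70, -1.73 and -2.58, with replicate 3 the lowest. Mgmt, whose promoter is printed above, was absent, and Tert and Mycl were mixed. An array level does not show whether the encoded protein is intact, and mutations were not assessed.

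All 22 genes of G1/S and replication and all 22 of G2/M and mitosis were detected, beside 59.2% of all named genes. Of them, 21 and 22 lay above the 75th percentile. Pcna, the sliding clamp of DNA polymerase, was at 6.56, 6.75 and 7.04, Birc5, survivin, at 6.73 ± 0.10 and Mki67, the Ki-67 antigen, at 4.81, 4.81 and 5.10. Ccne2 lay apart at -3.74 ± 0.15. The arrays were not alike for these lists: 16 of 22 G1/S genes and 18 of 22 G2/M genes had their highest value on replicate 3, against 45.4% of all detected genes. The median deviation of replicate 3 from the mean of the other two was 0.21 and 0.24 in these lists, against 0.05 over all detected genes.

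The other cell state lists were detected nearly throughout, beside 59.2% of all named genes. All 25 immediate early genes, which respond within minutes to growth factors, were detected, with Jun at 4.85, 5.22 and 4.67 (4.91 ± 0.28), the ERK phosphatase gene Dusp6 at 5.68 ± 0.10 and Fos at -2.37 ± 0.12. All 22 hypoxia and glycolysis genes were detected, with Pgk1 at 8.34 ± 0.20, Ldha at 7.88 ± 0.16 and Car9, a carbonic anhydrase induced by low oxygen, at 1.23 ± 0.18. Cholesterol synthesis genes were detected in 23 of 24 cases, all 23 above the 75th percentile, with Fdps at 6.50 ± 0.14 and Msmo1 at 6.46 ± 0.15. Of 32 interferon response genes 27 were detected, with Ifitm3 at 7.05 ± 0.12 and Isg15 at 3.87 ± 0.12, and the antigen processing genes Tap1, Psmb8 and Psmb9 were absent.

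ATF4 is the transcription factor of the integrated stress response and of amino acid shortage. All 25 genes of its list were detected, beside 59.2% of all named genes. Atf4 had levels of 8.64, 8.59 and 8.04, Asns, asparagine synthetase, 6.80, 6.88 and 6.29, and Trib3, a pseudokinase induced by stress, 6.02, 5.79 and 4.88. In these 3 genes replicate 3 lay below both other arrays. The same held for 23 of the 25 genes, against 32.5% of all detected genes, and 21 of the 25 had their highest value on replicate 1, which held for 2906 of 13564 genes in all. The median deviation of replicate 3 was -0.43 in this list, and the median SD of 0.28 was above the 0.156 of all detected genes. Ppp1r15a (4.0, 3.61 and 2.84), Chac1 (4.44, 4.0 and 3.34) and Gdf15 (0.41, 0.03 and -0.83) had SDs of 0.59, 0.55 and 0.64, while Phgdh (6.50 ± 0.04) and Psat1 (6.15 ± 0.09), enzymes of serine synthesis, varied little. Ubiquitous genes, many of them very bright, also had their lowest value on replicate 3 in 15 of 23 cases, with a median deviation of -0.16. Immediate early genes did in 17 of 25 cases, with a median of -0.21, and the detected Wnt and Hedgehog ligands in 7 of 7, with a median of -0.25. The part of signal scaling in the difference of the ATF4 list was not tested.

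The 25 brightest named genes lay between 8.57 and 9.25 and comprised 11 ribosomal protein genes, 2 histone genes and general genes such as Ppia, Tuba1b and Actb. Crabp1, which binds retinoic acid in the cytoplasm and is known from the embryonic nervous system, had levels of 9.35, 9.47 and 8.94 with both probes detected. Lgals1, Sparc and Cdk4 were also among the 25. Kctd14 had levels of 8.92, 8.97 and 8.32 and the mitochondrial glutaredoxin gene Glrx2 8.89, 8.93 and 8.37. In 25 of the 25 genes replicate 3 was the lowest array after scaling, against 32.5% of all detected genes. The 75th percentile used for scaling was 868.4 on replicate 3, against 539.6 and 532.5 on replicates 1 and 2. The part of scaling in this order was not tested.

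The spread between the 3 arrays was small for most genes. The median SD of the 13564 detected genes was 0.156, and the 5th and 95th percentiles were 0.0415 and 0.429. An SD above 0.5 was found in 405 genes (2.99%) and above 1 in 16. Dim genes varied more: the median SD was 0.253 in the lowest eighth of levels and 0.133 in the highest. Probes spotted 10 times on each array gave a median SD between spots of 0.035, 0.038 and 0.035 on replicates 1, 2 and 3, and the 290 of them that were detected had a median SD of 0.129 between arrays. The difference between arrays was thus larger than that between spots. Pearson correlations across the detected genes, which are not independent replicates, were 0.997 for replicates 1 and 2, 0.993 for 1 and 3, and 0.994 for 2 and 3. Replicate 3 was the array farthest from the other two for 48.8% of the genes, replicate 1 for 28.3% and replicate 2 for 22.9%. Without replicate 3 the median SD fell to 0.095.

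**Figure D4:**
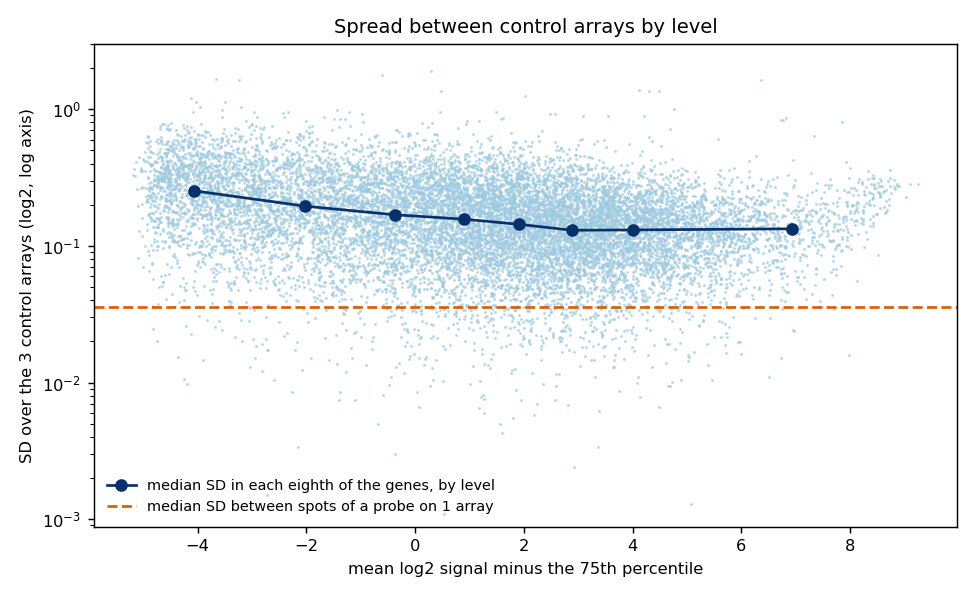
SD over the 3 control arrays (log2 units, log axis) of each detected gene against its mean level, with the median SD in each eighth of the genes (dark line) and the median SD between repeated spots of a probe within 1 array (dashed line). The median SD is 0.253 in the dimmest eighth and 0.133 in the brightest, above the line for repeated spots throughout.

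Replicate 3 was lower in most structural RNAs and replication-dependent histone genes, groups that were formed after the values were seen. Genes at least 2-fold below the mean of the other two arrays numbered 115 on replicate 3 (0.848%), 14 on replicate 1 (0.103%) and 16 on replicate 2 (0.118%). Leaving out replicate 2 raised the count for replicate 3 to 178. Of the 115 genes, 15 were structural non-coding RNAs, 13 were replication-dependent histone genes and 87 belonged to neither class. Of those 87, 77 were other protein-coding genes. Structural RNAs, such as the 28S ribosomal RNA and the spliceosomal U1 RNA, mostly lack the poly(A) tail from which labelling usually starts, and mRNAs of replication-dependent histones end in a stem-loop instead of such a tail. The lowest value fell on replicate 3 in 32.5% of all detected genes. Among 29 detected structural RNA genes, 26 were lower on replicate 3 than on both other arrays, and the median deviation was -1.13. Among 42 replication-dependent histone genes it was 38, with a median of -0.50. Some of them are among the brightest genes, where replicate 3 was lower in other genes too. H2ac12 deviated by -0.44 and H2ac11 by -0.48, beside -0.47 for Ppia and -0.52 for Sparc. The 13 that were at least 2-fold lower deviated more. The part of brightness in the histone median was not tested. The 6 replacement histone genes, which are not of the replication-dependent kind, had a median of -0.10, and 3 of them were lower on replicate 3 than on both other arrays. The 12711 other protein-coding genes had a median of 0.06. The part of poly(A) tails in these medians was not tested.

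Rn28s1, the 28S ribosomal RNA, had levels of 7.11, 7.48 and 4.48, and the U1 gene Rnu1a1 had 5.06, 5.46 and 2.92. Rn7sk, the RNA that restrains the elongation factor P-TEFb, was at 2.62, 2.85 and 0.58, and the linker histone gene H1f4 at 5.21, 5.47 and 3.60. In these 4 genes replicates 1 and 2 lay close together and replicate 3 was well below both. Not all structural RNAs differed: the minor spliceosomal RNA Rnu12 had levels of 4.24, 4.71 and 4.71, and Terc, the telomerase RNA, -4.23, -4.71 and -4.57. The E1A spike-in controls, synthetic transcripts that do not come from the cells, moved the same way. All 7 of 10 spike-in probes that were above background on the 3 arrays were lower on replicate 3, by 1.44 to 1.54 on the log2 scale, a 2.87-fold difference at the median, while replicates 1 and 2 differed by at most 0.23. Before scaling by the 75th percentile the spike-in signal of replicate 3 was 1.77-fold lower at the median. What part the amount of input RNA, poly(A) tails or labelling had in these differences was not tested.

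**Figure D5:**
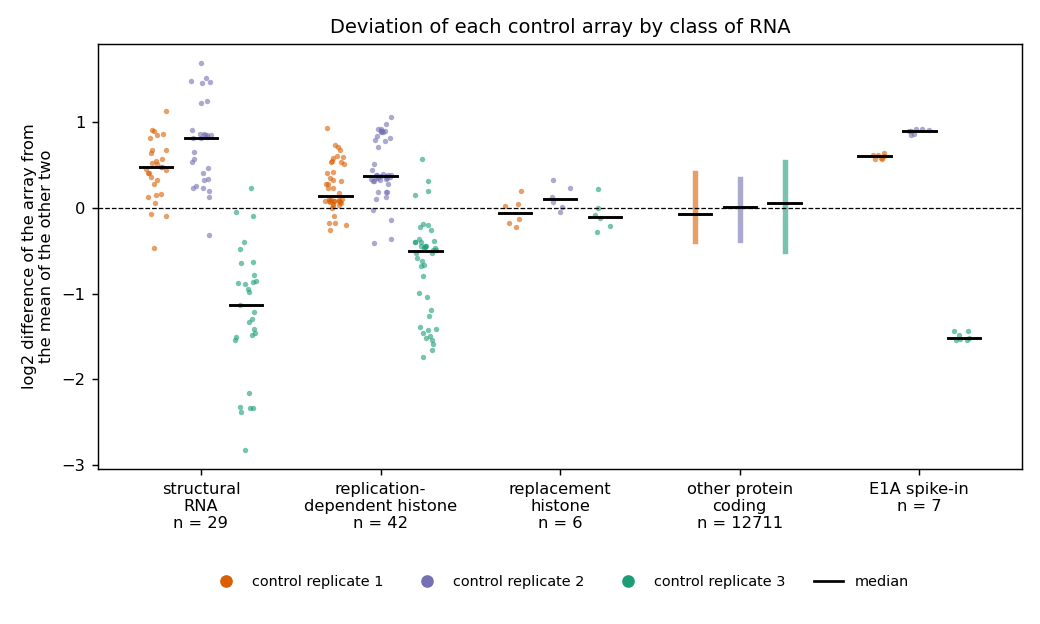
Log2 difference of each control array from the mean of the other two for structural RNA genes, 2 kinds of histone genes, other protein-coding genes and E1A spike-in probes; points are genes or probes, black bars are medians, and for the 12711 other protein-coding genes the coloured bars span the 5th to 95th percentile. Replicate 3 has medians of -1.13 for structural RNA, -0.50 for replication-dependent histones and -1.52 for the spike-ins, against 0.06 for other protein-coding genes.

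The 15 named genes with the largest SD were 6 structural RNAs, 1 histone gene and 8 other genes. Replicate 3 was the array farthest from the others in 13 of the 15, against 48.8% of all detected genes. It was the lowest array in 13, which are not all the same genes, against 32.5% of all detected genes. Cd247, which encodes the zeta chain of the T cell receptor complex, had levels of 1.29, 1.48 and -1.88, by 1 of its 3 probes. Spint2, an inhibitor of serine proteases, had 0.25, 0.58 and -2.63, by 1 of 2 probes. Myl1, a myosin light chain of muscle, was at -5.05, -1.83 and -4.12, with replicate 2 far above the others and 1 of its 3 probes absent. Fgf21, a secreted stress hormone that is also on the ATF4 list, had levels of -2.11, -3.37 and -4.15. Msrb3, a methionine sulfoxide reductase, was at -4.53, -3.68 and -2.30, with replicate 3 the highest. At the other end, Adipor2, an adiponectin receptor, was at 5.08 on 3 of 3 arrays with an SD of 0.0013, and Zscan22 at 0.54 with an SD of 0.0011. With 13564 genes and 3 arrays some SDs are close to 0, and such a gene is not thereby a stable reference.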

How the data were processed

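The 3 control arrays were read as deposited. Per the file headers, each deposited array file gives the processed signal of a spot as linear intensity, background already subtracted by Feature Extraction 11.0.1.1 of Agilent, together with quality flags; other processing is not given in the sources used here. The deposited value table holds log2 values, which equal log2 of the processed signal minus 1 constant per array for 100% of 56305 probes within 0.01; it is not centred by gene. All arrays shared 1 slide, so slide could not be a block, and position was not compared.

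Outlier spots were left out, the log2 values of repeated spots were averaged per probe, and the array's 75th percentile over 56600 non-control probes was subtracted. Accessions without version named 32991 probes (58.3%) through a RefSeq table of GRCm38.p6, used for names and promoters only. For a gene with several probes the probe with the highest mean gave the level. SDs are over n = 3 arrays, whose number limits the precision. With 1 group there was no test. The members and the 47 gene lists (975 genes on the array) were chosen with earlier results of these data known. Named genes were the defining list members, the members of the 22 axes, up to 8 further detected members per list with the highest mean, the 25 brightest, 15 most and 5 least variable genes, and Ggct, Notch1 and Jun. Other genes, absent ones above all, were named after their values were seen, as were the classes of RNA and the promoter comparison.

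Alternatives changed the flag, arrays, probes, background correction and scaling. For normexp with an offset of 50 the median signal of a spot replaced the mean signal. The gene summary was tested on simulated data. Python 3.11.15, pandas 2.3.3, matplotlib 3.10.9, R 4.3.3 and limma 3.58.1 were used. Some genes are not reported here.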

Additional observations from a re-analysis of the deposited data

How the results depend on the processing

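No paired analysis was possible because 1 group was described and no test was made. The gIsPosAndSignif flag, a laxer call of signal above background, raised the detected genes from 13564 to 15766, lowered the absent ones from 8493 to 4893, and raised detected olfactory receptor genes from 6.48% to 19.3%. Under it 39 of 47 lists stayed within 1.5 times their count, and the others were oligodendrocyte progenitor (10 detected), ependymal (4), lymphocyte (3), Schwann and neural crest (10), epithelial (6), Hox (8), glutamate and GABA receptors (22) and Wnt and Hedgehog ligands (12). Requiring every probe of a gene left 12214 detected genes, with 41 of 47 lists within 1.5 times and oligodendrocyte progenitor at 3, mature oligodendrocyte at 5, Schwann and neural crest at 3, pluripotency at 4, proneural at 5 and EGF family ligands at 4. With at least 2 of 3 arrays, or without replicate 1, the epithelial list had 1 detected gene, against 0 without replicate 2 or replicate 3. Leaving out 1 array gave 13599 to 13802 detected genes.

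The median level of the detected genes moved from 1.43 to 1.33 with normexp and to 0.35 with the mean of probes, which includes undetected ones. It moved to -0.94 with the percentile over probes detected on all arrays. That setting shifts all genes of an array alike, by an amount that differs between arrays. Over the 109 detected defining genes, 109 stayed within 1 SD with quantile normalization, 59 with normexp and 56 with the mean of probes. With the percentile over probes detected on all arrays it was 0. The deposited table and any 1 array left out also kept 109, but neither is a separate check. The table holds the same signal minus 1 constant per array. Leaving out 1 of 3 arrays always moves a mean by less than 1 SD. The median SD of 0.156 ran from 0.095 to 0.157 with 1 array left out and was 0.253 without the detection filter. Genes 2-fold lower on replicate 3 numbered 115, with 47 under normexp and 112 to 178 with replicate 1 or 2 left out. The count was 89 with quantile normalization and 167 with the percentile over probes detected on all arrays. With that percentile the median deviation of replicate 3 for other protein-coding genes moved from 0.06 to -0.02. The cause was not tested. Under all alternatives run, the median deviation of replicate 3 ran from -1.21 to -0.98 for structural RNA and from -0.58 to -0.45 for replication-dependent histones. Signal near background limits the calls of dim genes.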
